A study of Mus musculus with 12 samples.

Results

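The genes described here mark immune cells that reach the optic nerve from the blood or live at its borders. They are 38 of the 35275 genes of the count table, chosen by gene name as known markers of border macrophages (11 genes), monocytes (4), T and NK cells (8), B cells (5) and neutrophils (10). All 38 were found as 1 row each, and 37 passed the filter on low counts. Ly6g, a surface marker of neutrophils, did not.

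RNA with poly(A) tails was measured in optic nerves of mice that model neurofibromatosis type 1 (NF1), a disorder of the NF1 tumour suppressor gene. Carboplatin, a platinum drug that cross-links DNA, was given in 3 libraries. Selumetinib, an inhibitor of the kinases MEK1 and MEK2, was given in another 3. Phosphate-buffered saline (PBS) was given in 6. All 12 libraries carry the NF1 label, so the controls do too, and no wild-type group was used here. The allele, strain, sex, age, dose, schedule and number of nerves per library are not given in the sources used here. Whether libraries of 1 group stem from different animals is not stated either, and p-values therefore reflect only the spread among these libraries, part of which may be technical. In whole tissue, fewer cells of a type and less RNA per cell cannot be told apart.

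The brain and optic nerve hold microglia within the tissue, while other macrophages live in the meninges and around vessels and take up material there through scavenger receptors. Monocytes and neutrophils are made in bone marrow, circulate in blood and enter tissue through vessel walls, monocytes by way of the chemokine receptor CCR2. T and B cells read antigen through receptors whose constant chains and CD3 or CD79 partners are among the genes described, and few of these cells are found in healthy nerve.

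Each library held between 21793052 and 33375754 counts, so that 1 count was worth between 0.0302 and 0.0466 CPM (counts scaled to a common library size). The 38 genes together took between 0.00785% and 0.0707% of the counts of a library. The labels name the material as nerve cells, and 7 genes of mature oligodendrocytes summed to between 18296 and 92771 CPM, so glia of the nerve were present in every library. Some libraries stood apart from their groups. PBS 1 had 74582 CPM over 8 skeletal muscle genes, against 9.98 to 2061 CPM in the other 11 libraries. Selumetinib 1 and 2 and PBS 1 had the lowest 3 sums of oligodendrocyte genes, from 18296 to 27611 CPM. Carboplatin 1 and 3 had 815 and 1566 CPM over 6 photoreceptor genes, against at most 123 CPM elsewhere. In the count table PBS 1 to 3 stand next to carboplatin 1 to 3, and PBS 4 to 6 next to selumetinib 1 to 3. The labels name no batch, and for that reason the values are also given for PBS 1 to 3 and PBS 4 to 6 separately.

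After carboplatin nearly all of the immune marker genes had lower levels than after PBS, but 1 of them passed the test, the monocyte receptor gene Ccr2. With carboplatin against PBS, 36 of the 37 tested genes had a log2 fold change below 0 (97.3%), against 60.0% of all 18344 genes tested. Their median log2 fold change was −1.82, and that of all genes was −0.11. With PBS 1 to 3 as controls 27 of the 34 genes then tested lay below 0, and with PBS 4 to 6 it was 32 of 36. In the quasi-likelihood test of edgeR, with p-values adjusted by Benjamini-Hochberg over all genes, 1 of the 37 fell (Ccr2) and 0 rose. That is 2.70% of the genes. Of all genes 2.09% were called, 1.57% higher and 0.518% lower, so by edgeR the share called in either direction is near the background. DESeq2 called 10 of the 37 (27%), against 8.58% of all genes. At an unadjusted p under 0.05, 15 of the 37 were lower and 0 higher (40.5%), against 16.5% of all genes in either direction, 8.12% higher and 8.43% lower. In 6 genes all carboplatin libraries lay below all PBS libraries (16.2%, against 5.23% of all genes): Mrc1, Pf4, Folr2, Ccr2, Cd3g and Trac. In 0 genes all carboplatin libraries lay above PBS, against 6.97% of all genes.

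Under selumetinib, 36 of 37 genes also had a log2 fold change below 0 against PBS (97.3%, against 56.9% of all genes), and their median was −0.98. Set against PBS 1 to 3 alone, 23 of the 34 genes then tested lay below 0, and without PBS 1, selumetinib 1 and selumetinib 2 it was 24 of 38. By edgeR 0 of 37 passed, and 0% of all genes did. An unadjusted p under 0.05 was reached by 7 (18.9%, against 24.0% of all genes), and DESeq2 called 4, all lower (10.8%, against 13.1% of all genes). In 1 gene, Ltf, all selumetinib libraries lay below all PBS libraries (2.70%, as among all genes, 2.70%). Both treatments were compared with the same PBS libraries, so the values of these comparisons are not independent of each other. Carboplatin against selumetinib gave 3 calls among the 37 genes (8.11%, against 14.0% of all genes): Ccr2 and Trac fell (8.35% of all genes fell), and Ltf rose (5.65% of all genes rose). Of the 37, 26 lay below 0 (70.3%, against 50.4% of all genes). The libraries of the drugs did not overlap for Ccr2, Trac and Ms4a1, which were lower with carboplatin (8.11%, against 20.8% of all genes), nor for Ltf and Plac8, which were higher (against 20.9% of all genes).

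Per kilobase of exon, the median PBS level of these genes ran from 0.103 CPM per kilobase for Cd209f to 18.0 for S100a9. The 8 T and NK cell genes lay between 0.187 CPM per kilobase for Cd4 and 1.29 for Trbc2, so single libraries held few reads of each.

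**Figure D1:**
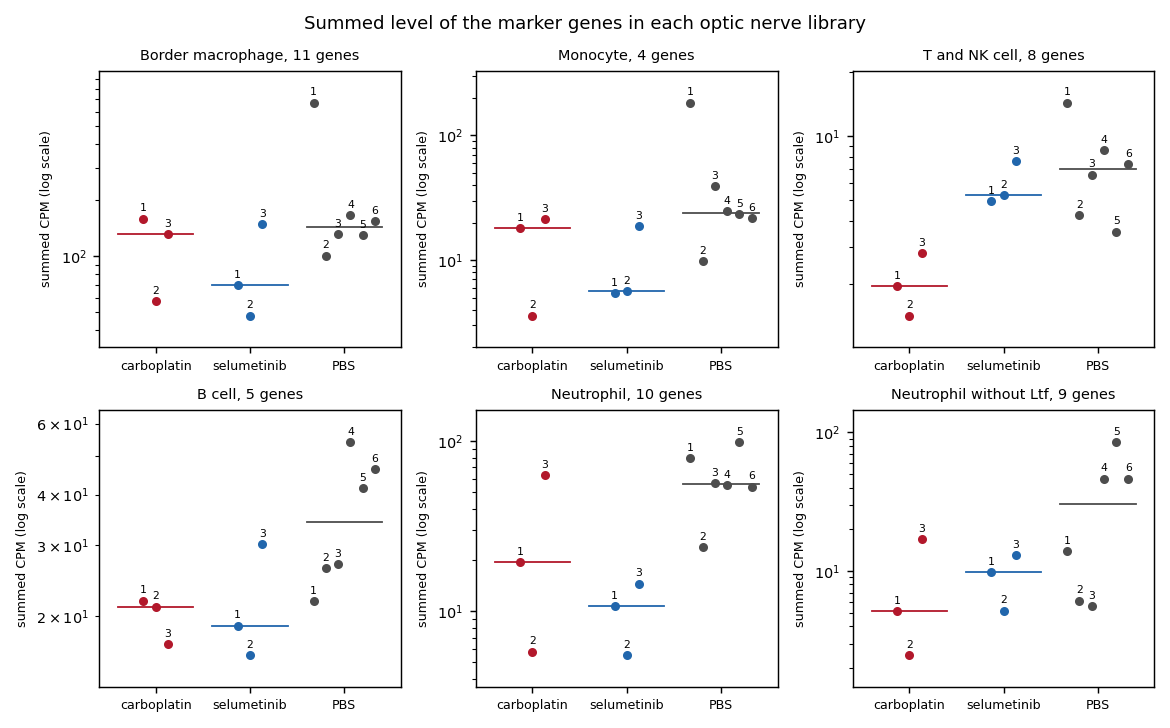
Summed CPM of the marker genes of each cell type in each library, on a log axis, with a point per library and a line at each group's median. The T and NK cell sums of all 3 carboplatin libraries, from 1.43 to 2.80 CPM, lie below the other 9 libraries. PBS 1 stands far above the rest for the border macrophage and monocyte sums, mostly through Cbr2 and Plac8. Without Plac8, the monocyte genes of PBS 1 sum to 8.85 CPM, below PBS 4 to 6 (20.2 to 22.5 CPM).

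Border macrophage genes as a group were present in every library. Their sum was 160, 57.6 and 132 CPM in carboplatin libraries, 70.3, 48.1 and 149 CPM in selumetinib libraries, and 101 to 672 CPM in PBS libraries with a median of 144. PBS 1 alone made the upper end, since the other 5 PBS libraries lay between 101 and 166 CPM. The carboplatin and selumetinib libraries overlapped those 5. For carboplatin this overlap rested largely on Cbr2. Without Cbr2 the sums were 94.0, 50.4 and 88.8 CPM in carboplatin libraries and 66.2, 45.1 and 142 CPM in selumetinib libraries. Those 5 PBS libraries then held 92.6 to 158 CPM. Of the carboplatin libraries only carboplatin 1 lay in that range, near its lower end, and of the selumetinib libraries only selumetinib 3. All 11 genes had a log2 fold change below 0 under carboplatin, with a median of −1.14. By edgeR 0 of them passed, and 4 had an unadjusted p under 0.05 (36.4%, against 16.5% of all genes). DESeq2 called 1 of the 11, and 8.58% of all genes. Without PBS 1 the median was −0.76, with 9 of the 10 genes then tested below 0.

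Mrc1, the mannose receptor CD206 (chr2:14229392-14332057 in build GRCm38), had 13.7, 3.67 and 11.6 CPM in carboplatin libraries. Selumetinib libraries had 9.66, 7.81 and 26.7 CPM, and PBS libraries 18.7 to 30.5 CPM with a median of 23.9. The carboplatin libraries were all lower than every PBS library, whereas selumetinib 3 lay within the PBS range. The means were 9.64 ± 5.28 CPM for carboplatin (SD, n = 3) and 24.9 ± 4.62 CPM for PBS (SD, n = 6). The log2 fold change of −1.37 ± 0.47 (SE) did not pass by edgeR (adjusted p = 0.172), while DESeq2 called it (adjusted p = 0.0308).

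Pf4, the chemokine platelet factor 4, and Folr2, a folate receptor, also had no overlap between carboplatin and PBS. Pf4 had 2.39, 0.816 and 1.54 CPM after carboplatin, against 2.56 to 11 CPM in PBS with a median of 3.73. Folr2 had 2.51, 1.63 and 2.54 CPM after carboplatin, against 3.48 to 25.6 CPM in PBS with a median of 5.05. Their log2 fold changes were −1.59 ± 0.60 and −1.89 ± 0.75, and neither passed (edgeR adjusted p = 0.215 and 0.239). For both genes PBS 1 was the highest library, yet the gap between the groups does not rest on it, since the lowest PBS value came from PBS 2 in each.

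The scavenger receptor genes Stab1 and Cd163 differed least. Stab1, which encodes stabilin 1, had 35.9, 28.2 and 37.4 CPM after carboplatin, against 35.6 to 57.7 CPM in PBS with a median of 48.4. Cd163, which takes up haemoglobin, had 11.1, 4.65 and 12.3 CPM, against 8.17 to 19.5 CPM in PBS with a median of 10.6. The log2 fold change was −0.47 ± 0.27 for Stab1 and −0.38 ± 0.44 for Cd163. Carboplatin 2 was the low library for Stab1, Cd163, Mrc1, Lyve1 and F13a1. It was also the carboplatin library with the lowest sum of 10 meningeal and sheath fibroblast genes, at 524 CPM, against 1373 and 1135 CPM in carboplatin 1 and 3. The part of sheath tissue in these values was not tested.

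Lyve1, the hyaluronan receptor of vessel-associated macrophages and lymphatic vessels, had 3.08, 1.95 and 7.95 CPM in selumetinib libraries, against 4.86 to 23.6 CPM in PBS with a median of 12.9. Its log2 fold change was −1.52 ± 0.60, which did not pass (edgeR adjusted p = 0.161). Selumetinib 1 and 2 lay below every PBS library and selumetinib 3 did not. Those libraries also had low fibroblast sums of 717 and 459 CPM, against 2164 CPM in selumetinib 3 and 1338 to 2952 CPM in PBS. Without selumetinib 3, Mrc1, Lyve1 and Stab1 fell against PBS by edgeR, with adjusted p = 0.0331, 0.0304 and 0.0306. That fit called 13.5% of the immune marker genes and 21.6% of all genes. With all 3 selumetinib libraries none of these 3 passed by edgeR, and DESeq2 called Lyve1 (adjusted p = 0.049).

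Cbr2, a carbonyl reductase, and the lectin genes Cd209f and Clec10a set PBS 1 apart. Cbr2 had 65.7, 7.22 and 43.2 CPM in carboplatin libraries and 3.02 to 7.44 CPM in selumetinib libraries. In PBS 1 it had 441 CPM, against 5.91 to 39.2 CPM in the other PBS libraries. Clec10a had 14.2 CPM there, against 0.453 to 1.53 CPM, and Cd209f had 7.36 CPM, against 0.0825 to 0.656 CPM. F13a1, the coagulation factor XIII A chain, had 6.20 to 16.1 CPM after carboplatin, against 10.3 to 44.8 CPM in PBS. Ms4a7, a membrane protein gene of macrophages, had 0.701 to 1.75 CPM after carboplatin, against 1.05 to 3.78 CPM in PBS.

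**Figure D2:**
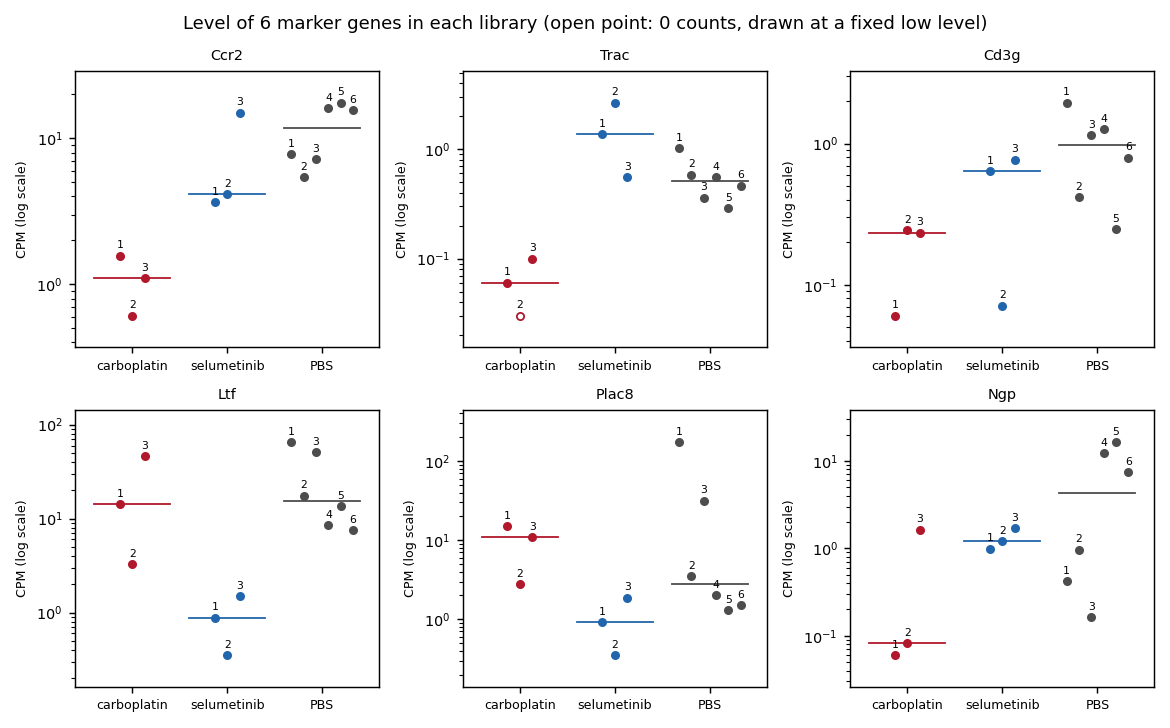
CPM of single genes in each library by treatment, with a point per library. Ccr2 lies at 0.612 to 1.57 CPM in carboplatin libraries, below all selumetinib libraries (3.68 to 15 CPM) and all PBS libraries (5.40 to 17.6 CPM).

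Ccr2 (chr9:124101950-124113557), the receptor through which monocytes leave marrow and enter tissue, fell under carboplatin. It had 1.57, 0.612 and 1.10 CPM in carboplatin libraries, from 52, 15 and 33 counts. Selumetinib libraries had 3.68, 4.15 and 15 CPM, and PBS libraries 5.40 to 17.6 CPM with a median of 11.7. The carboplatin libraries lay below all others, and within PBS, PBS 4 to 6 (15.6 to 17.6 CPM) lay above PBS 1 to 3 (5.40 to 7.82 CPM). The log2 fold change against PBS was −3.40 ± 0.65 (edgeR adjusted p = 0.0238), and against selumetinib −2.78 ± 0.67 (edgeR adjusted p = 0.0253).

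With PBS 1 to 3 as the only controls, the log2 fold change of Ccr2 under carboplatin was −2.64 and did not pass (edgeR adjusted p = 0.245), in a fit that called 7 of all genes. With PBS 4 to 6 it was −3.88 (edgeR adjusted p = 0.00885). Leaving out any 1 of carboplatin 1, 2 and 3 or PBS 4, 5 and 6 also ended the call, with adjusted p between 0.0518 and 0.133. Over the 12 fits without 1 library, the log2 fold change stayed between −3.75 and −3.11. Against selumetinib the call ended without any 1 of the carboplatin libraries, selumetinib 1 or selumetinib 2 (edgeR adjusted p between 0.0635 and 0.0935), and without selumetinib 3 the log2 fold change was −1.85 (edgeR adjusted p = 0.034).

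No other monocyte gene passed the edgeR test. Ly6c2, the Ly6C antigen of classical monocytes, had 0.212, 0 and 0.30 CPM after carboplatin, against 0.197 to 2.31 CPM in PBS with a median of 1.31. Its log2 fold change of −2.86 ± 1.01 did not pass (edgeR adjusted p = 0.186), and PBS 3 overlapped the carboplatin libraries. DESeq2 called it (adjusted p = 0.0207), as did edgeR with PBS 4 to 6 as controls (adjusted p = 0.0378). Like Ccr2 it was higher in PBS 4 to 6 (1.59 to 2.31 CPM) than in PBS 1 to 3 (0.197 to 1.02 CPM). Plac8, a small cysteine-rich protein found in monocytes and other cells, had 15.2, 2.77 and 11 CPM after carboplatin and 0.920, 0.355 and 1.88 CPM after selumetinib. PBS libraries had 1.32 to 175 CPM with a median of 2.75, and PBS 1 and PBS 3 held the highest values, 175 and 31.6 CPM. All carboplatin libraries thus lay above all selumetinib libraries for Plac8, with a log2 fold change of 3.20 ± 1.87 that did not pass (edgeR adjusted p = 0.266). Against PBS the log2 fold change of Plac8 under carboplatin was −1.89 (edgeR adjusted p = 0.595). Its sign depended on the controls, since it was 0.27 without PBS 1 and 2.58 with PBS 4 to 6, where Plac8 passed as higher (edgeR adjusted p = 0.0478).

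Chil3, a chitinase-like protein of myeloid cells, was the 1 gene above 0 under carboplatin. It had 1.12, 0.204 and 9.05 CPM there, against 0 to 4.42 CPM in PBS with a median of 1.18. Carboplatin 3 was its highest library of all, and PBS 1 and PBS 3 had 0 counts. The log2 fold change was 1.08 ± 1.43 (edgeR adjusted p = 0.738), and −1.27 without carboplatin 3. Among 16 tested genes of further monocyte and dendritic cell markers, 0 passed against PBS for either drug. Cd209a, a lectin of dendritic cells, had 0, 0.0816 and 0.0334 CPM after carboplatin and 0.248, 0.426 and 1.37 CPM after selumetinib. It fell with carboplatin against selumetinib (log2 fold change −4.07 ± 1.19, edgeR adjusted p = 0.0447), 1 of those 16 genes (8.35% of all genes fell).

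T and NK cell genes were lowest after carboplatin as a group. Their sum was 1.97, 1.43 and 2.80 CPM in carboplatin libraries, 4.95, 5.29 and 7.61 CPM in selumetinib libraries, and 3.55 to 14.4 CPM in PBS libraries with a median of 6.98. The carboplatin libraries lay below all 9 others. All 8 log2 fold changes against PBS were below 0, and their median was −1.87. By edgeR 0 of them passed, and 4 had an unadjusted p under 0.05 (50.0%, against 16.5% of all genes). DESeq2 called 3 of the 8, and 8.58% of all genes. The median was −2.03 with PBS 1 to 3 as controls, −1.74 with PBS 4 to 6 and −1.64 without PBS 1, so its sign and rough size held with each choice of controls.

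Trac (chr14:54220521-54224206), the constant chain of the alpha T cell receptor, had 2, 0 and 3 counts in carboplatin libraries, or 0.0605, 0 and 0.10 CPM. Selumetinib libraries had 1.38, 2.66 and 0.556 CPM, and PBS libraries 0.289 to 1.02 CPM with a median of 0.511. Carboplatin libraries lay below all others, and selumetinib 1 and 2 lay above all PBS libraries. Trac fell with carboplatin against selumetinib, with a log2 fold change of −4.68 ± 0.89 (edgeR adjusted p = 0.0139). Against PBS the log2 fold change was −3.19 ± 0.82 for carboplatin (edgeR adjusted p = 0.0733) and 1.49 ± 0.61 for selumetinib (edgeR adjusted p = 0.174). By edgeR neither of those passed with all 12 libraries, and DESeq2 called the carboplatin difference (adjusted p = 0.00605). The carboplatin difference from PBS passed without PBS 1 (edgeR adjusted p = 0.0376). The selumetinib difference from PBS passed without selumetinib 3 (log2 fold change 1.92, edgeR adjusted p = 0.0495). The difference of carboplatin from selumetinib did not pass without carboplatin 1, carboplatin 3, selumetinib 1 or selumetinib 2 (edgeR adjusted p between 0.0537 and 0.0644).

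The receptor chains and their CD3 partners did not run in parallel in the selumetinib libraries. Trac and Trbc2, the beta constant chain, summed to 2.41, 4.01 and 0.727 CPM in selumetinib 1, 2 and 3, while Cd3e, Cd3d and Cd3g summed to 1.24, 0.320 and 3.21 CPM. Selumetinib 2 thus had the highest receptor sum of all libraries and the lowest CD3 sum. In carboplatin libraries both were low, at 0.212 to 0.367 CPM for the receptor chains and 0.612 to 1.40 CPM for CD3. PBS libraries had 0.796 to 2.61 CPM for the receptor chains and 1.15 to 4.61 CPM for CD3.

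Cd3g, a signalling chain of the T cell receptor complex, had 0.0605, 0.245 and 0.234 CPM after carboplatin, just below the PBS range of 0.247 to 1.96 CPM with a median of 0.972. Its log2 fold change of −2.42 ± 0.88 did not pass by edgeR (adjusted p = 0.198), while DESeq2 called it (adjusted p = 0.046). Cd8a, a coreceptor of cytotoxic T cells, had 0.423, 0.0408 and 0.568 CPM after carboplatin, against 0.453 to 4.66 CPM in PBS, where PBS 1 was highest. Cd4, the helper T cell coreceptor that some macrophages also carry, had 0.393, 0.367 and 0.0668 CPM after carboplatin, against 0.328 to 1.10 CPM in PBS. Nkg7, a granule protein of cytotoxic and NK cells, had 0.0408 to 0.434 CPM after carboplatin, against 0.133 to 1.54 CPM in PBS. These 3 overlapped between the groups and did not pass by edgeR, while DESeq2 called Cd8a (adjusted p = 0.0465).

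Of 19 further T and NK cell genes tested, 2 fell with carboplatin against PBS and 0 rose (0.518% of all genes fell and 1.57% rose). They were Cd8b1, the partner chain of CD8 (log2 fold change −3.12 ± 0.58, edgeR adjusted p = 0.0223), and Lck, the kinase that starts receptor signalling (−1.95 ± 0.40, edgeR adjusted p = 0.0339). Lck had 0.393, 0.734 and 0.534 CPM after carboplatin, against 1.54 to 3.03 CPM in PBS. Both calls used all 6 PBS libraries, and the fit with PBS 1 to 3 as controls called 7 of all genes. Against selumetinib 3 of the 19 fell (8.35% of all genes fell): Lck, Zap70, the kinase that follows it, and Cd5, a coreceptor of T cells. Zap70 had 3.08 and 3.76 CPM in selumetinib 1 and 2, against 0.599 CPM in selumetinib 3, so it was high in the same libraries as Trac.

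The B cell genes other than Ighm divided the PBS libraries. The sum of all 5 was 21.9, 21.1 and 17.1 CPM in carboplatin libraries, 19.0, 16 and 30.1 CPM in selumetinib libraries, and 21.8 to 54.0 CPM in PBS libraries with a median of 34.3. Ighm, the constant chain of IgM, had 16.8, 18.6 and 7.51 CPM after carboplatin, 10.5, 11.6 and 15.9 CPM after selumetinib, and 15.2 to 23.3 CPM in PBS. Carboplatin 3, selumetinib 1 and selumetinib 2 lay below every PBS library. Without Ighm, the other 4 genes summed to 2.57 to 9.58 CPM after carboplatin and 4.40 to 14.2 CPM after selumetinib. PBS 1 to 3 then held 3.64 to 6.61 CPM and PBS 4 to 6 held 20.7 to 31.4 CPM.

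Ms4a1 (chr19:11249675-11266241), which encodes CD20, had 0 counts in all 3 carboplatin libraries. It had 0.177, 0.391 and 0.385 CPM after selumetinib and 0 to 2.55 CPM in PBS with a median of 0.952. PBS 3 also had 0 counts, and PBS 4 to 6 held 162 of the 176 counts of the PBS group. With 3 counts over the carboplatin group as the floor, Ms4a1 was at least 33.1-fold lower there than in PBS and at least 9.14-fold lower than with selumetinib. Neither difference passed by edgeR with all libraries (adjusted p = 0.0981 and 0.0928), while DESeq2 called both (adjusted p = 0.000514 and 0.0136). Against PBS, Ms4a1 passed by edgeR without PBS 1 or without PBS 3, with adjusted p = 0.0413 and 0.0390. It also passed with PBS 4 to 6 as controls (edgeR adjusted p = 0.00387). Against selumetinib it passed without PBS 3 (edgeR adjusted p = 0.0407).

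Igkc, the kappa light chain, had 0.998, 1.67 and 6.11 CPM after carboplatin, 6.72, 1.53 and 10.6 CPM after selumetinib, and 1.64 to 22.4 CPM in PBS with a median of 8.66. Its PBS values fell into 1.64 to 3.68 CPM in PBS 1 to 3 and 13.6 to 22.4 CPM in PBS 4 to 6. Cd79b, a signalling chain of the B cell receptor, had 0.363 to 0.612 CPM after carboplatin, against 0.492 to 2.79 CPM in PBS (log2 fold change −1.77 ± 0.66, edgeR adjusted p = 0.214). Its partner Cd79a had 3.66, 0.285 and 3.00 CPM after carboplatin, against 1.21 to 3.66 CPM in PBS, with a log2 fold change of −0.12 ± 0.62, which was 0.53 with PBS 1 to 3 as controls. Carboplatin 1 and 3 were thus high for Cd79a while they had 0 counts of Ms4a1.

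Among further B and plasma cell genes, Pax5, a transcription factor of B cell identity, had 0 counts in every carboplatin library. It fell with carboplatin against selumetinib (edgeR adjusted p = 0.0455).

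Neutrophil genes other than Ltf were, in sum, high in PBS 4 to 6 and low in the other 9 libraries. Without Ltf, the 9 genes summed to 5.17, 2.49 and 17.1 CPM after carboplatin and 9.84, 5.18 and 13 CPM after selumetinib. PBS 1 to 3 had 14.0, 6.12 and 5.57 CPM, and PBS 4 to 6 had 46.5, 85.4 and 46.5 CPM. Both treated groups overlapped PBS 1 to 3 and lay below PBS 4 to 6. All 9 tested genes, Ltf among them, had a log2 fold change below 0 under carboplatin, with a median of −2.33, and likewise under selumetinib, with a median of −2.32. By edgeR 0 passed against PBS for either drug. An unadjusted p under 0.05 was reached by 3 for carboplatin (33.3%, against 16.5% of all genes) and 1 for selumetinib (11.1%, against 24.0%). DESeq2 called 3 for carboplatin and 1 for selumetinib, where it called 8.58% and 13.1% of all genes. With PBS 1 to 3 as controls the medians were 0.38 for carboplatin and −0.18 for selumetinib over the 6 genes then tested, and with PBS 4 to 6 they were −2.80 and −3.24.

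Promoters are shown for Ngp, Camp, S100a8 and S100a9, granule and cytosol genes of neutrophils that were high together in PBS 4 to 6, and for Ltf, which was not. Each is the 250 bases before the gene start in the RefSeq table (build GRCm38.p6), read 5′ to 3′ on the gene's own strand. GENCODE places the starts of Ngp, Camp, S100a8 and Ltf inside these stretches, at 110419747, 109849617, 90668978 and 111019271. Part of each of these stretches thus lies within the gene as GENCODE gives it. The regions are chr9:110419558-110419807 (+ strand) for Ngp, chr9:109849457-109849706 (- strand) for Camp, chr3:90668821-90669070 (+ strand) for S100a8, chr3:90695722-90695971 (- strand) for S100a9 and chr9:111019042-111019291 (+ strand) for Ltf. Capitals mark matches on either strand to TTGCNNAA, a motif of C/EBP factors of granulocytes, or GAGGAA, a core motif of PU.1.
Ngp: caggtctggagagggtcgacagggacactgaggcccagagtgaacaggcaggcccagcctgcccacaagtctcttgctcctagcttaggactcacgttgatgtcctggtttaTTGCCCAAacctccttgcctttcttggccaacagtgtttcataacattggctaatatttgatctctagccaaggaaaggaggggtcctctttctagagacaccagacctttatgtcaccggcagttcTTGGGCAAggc
Camp: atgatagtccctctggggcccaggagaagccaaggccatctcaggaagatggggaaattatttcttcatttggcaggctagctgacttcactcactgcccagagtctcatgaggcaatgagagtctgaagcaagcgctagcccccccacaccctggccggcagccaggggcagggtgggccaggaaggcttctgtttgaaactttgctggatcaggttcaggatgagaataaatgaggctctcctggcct
S100a8: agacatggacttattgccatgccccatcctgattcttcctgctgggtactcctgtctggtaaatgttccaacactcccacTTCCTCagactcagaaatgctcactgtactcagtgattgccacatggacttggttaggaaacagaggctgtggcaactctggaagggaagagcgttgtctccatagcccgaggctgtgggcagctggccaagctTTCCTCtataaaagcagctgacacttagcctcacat
S100a9: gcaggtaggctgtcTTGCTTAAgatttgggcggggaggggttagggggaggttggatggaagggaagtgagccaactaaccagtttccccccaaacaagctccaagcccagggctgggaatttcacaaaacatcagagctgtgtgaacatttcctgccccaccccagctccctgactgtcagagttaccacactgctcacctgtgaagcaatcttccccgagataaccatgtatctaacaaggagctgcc
Ltf: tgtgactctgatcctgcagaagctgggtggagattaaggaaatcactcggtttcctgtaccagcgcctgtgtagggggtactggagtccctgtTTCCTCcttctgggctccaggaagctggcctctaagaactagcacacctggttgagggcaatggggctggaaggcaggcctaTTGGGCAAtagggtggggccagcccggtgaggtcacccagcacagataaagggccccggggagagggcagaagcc
Ngp had 2 matches to the C/EBP motif, S100a9 had 1 and Ltf had 1, while S100a8 had 2 matches to the PU.1 motif and Ltf 1. Camp had 0 of either. Ltf, whose level did not follow the others, thus held both motifs. Over the 28 of the 38 genes with a listed promoter, 28.6% held the C/EBP motif and 57.1% the PU.1 motif, against 9.56% and 23.1% of 27018 promoters of the same length. A match is a run of letters and not evidence of binding.

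Ngp, a neutrophilic granule protein, had 0.0605, 0.0816 and 1.64 CPM after carboplatin, 0.991, 1.21 and 1.71 CPM after selumetinib, and 0.164 to 16.5 CPM in PBS with a median of 4.23. The PBS values were 0.419, 0.963 and 0.164 CPM in PBS 1 to 3 and 12.4, 16.5 and 7.51 CPM in PBS 4 to 6. The log2 fold change was −3.40 ± 1.57 under carboplatin (edgeR adjusted p = 0.310) and −2.28 ± 1.47 under selumetinib (edgeR adjusted p = 0.343). Carboplatin 1 and 2 lay below every PBS library, and carboplatin 3 and the selumetinib libraries lay inside the PBS range, below PBS 4 to 6. With PBS 1 to 3 as controls the log2 fold change was 0.19 for carboplatin and 1.35 for selumetinib.

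S100a8 and S100a9, which form calprotectin, showed the same division. S100a8 had 0.0408 to 2.40 CPM after carboplatin and 0.639 to 2.09 CPM after selumetinib, against 0.656 to 0.931 CPM in PBS 1 to 3 and 7.65 to 19.7 CPM in PBS 4 to 6. S100a9 had 1.47 to 8.48 CPM after carboplatin and 1.49 to 5.17 CPM after selumetinib, against 1.42 to 3.45 CPM in PBS 1 to 3 and 15.3 to 24.3 CPM in PBS 4 to 6. Camp, an antimicrobial cathelicidin, had at most 0.334 CPM after carboplatin and 0.778 CPM after selumetinib, against at most 0.293 CPM in PBS 1 to 3 and at least 1.91 CPM in PBS 4 to 6. With PBS 4 to 6 as the only controls, Ngp, Camp and Cxcr2 fell under carboplatin together with Mmp9 (edgeR adjusted p = 0.0291, 0.0149, 0.0277 and 0.0158), in a fit that called 12.3% of all genes. Against all 6 PBS libraries none of these 4 passed by edgeR, while DESeq2 called Camp, Cxcr2 and Mmp9 (adjusted p = 0.0476, 0.0355 and 0.00616).

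Retnlg, a resistin-like protein, and Mmp8, neutrophil collagenase, peaked in PBS 5, with 6.80 and 3.05 CPM. Retnlg had 0 to 1.14 CPM after carboplatin and 0.142 to 0.684 CPM after selumetinib, and Mmp8 had 0 to 1.44 CPM and 0 to 0.342 CPM. Cxcr2, the chemokine receptor that guides neutrophils, had 0 to 0.0816 CPM after carboplatin and 0 to 0.257 CPM after selumetinib, against 0.0656 to 0.233 CPM in PBS 1 to 3 and 0.956 to 1.23 CPM in PBS 4 to 6. Ly6g had 1 count in all carboplatin libraries, 7 in all selumetinib libraries, 0 in PBS 1 to 3 and 22 in PBS 4 to 6. It was too low to be tested.

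Mmp9, gelatinase B, which other cells also make, had 0.665, 0.612 and 1.60 CPM after carboplatin, 2.69, 1.42 and 2.99 CPM after selumetinib, and 1.02 to 8.25 CPM in PBS with a median of 4.86. Only PBS 3 lay among the carboplatin libraries. The log2 fold change under carboplatin was −2.33 ± 0.70 (edgeR adjusted p = 0.118). It passed with DESeq2 (adjusted p = 0.00616).

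Ltf (chr9:111019271-111042767), lactoferrin, an iron-binding protein of neutrophil granules and of gland secretions, did not follow the other neutrophil genes. It had 14.2, 3.30 and 46.0 CPM after carboplatin, 0.884, 0.355 and 1.5 CPM after selumetinib, and 65.6, 17.6, 50.9, 8.56, 13.5 and 7.57 CPM in PBS 1 to 6. All selumetinib libraries lay below all others, and PBS 1 to 3 lay above PBS 4 to 6, the reverse of Ngp. Ltf rose with carboplatin against selumetinib, with a log2 fold change of 4.54 ± 1.17 (edgeR adjusted p = 0.0317). Against PBS the log2 fold change was −0.36 ± 0.87 for carboplatin (edgeR adjusted p = 0.865) and −4.91 ± 1.15 for selumetinib (edgeR adjusted p = 0.0884). The selumetinib difference from PBS passed without selumetinib 3 (edgeR adjusted p = 0.0255) and with DESeq2 (adjusted p = 4.3e-06). The carboplatin value has no stable sign, since it was 1.11 with PBS 4 to 6 as controls, 0.10 without PBS 1 and 0.15 without carboplatin 2. The rise against selumetinib did not pass without carboplatin 1, carboplatin 3, selumetinib 1 or selumetinib 2 (edgeR adjusted p between 0.0702 and 0.123), and the log2 fold change was 3.28 without carboplatin 3.

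Across the 12 libraries Ltf was ordered most like Plac8 among the 38 genes (Spearman rho 0.87), and its median rho with the other neutrophil genes was 0.02. The median rho of Plac8 with the other monocyte genes was −0.28. The highest 4 libraries of both Plac8 and Cbr2 were PBS 1, PBS 3, carboplatin 1 and carboplatin 3, and 3 of these 4 also led Ltf. Within the lists, the median rho between pairs was 0.66 for border macrophage, 0.01 for monocyte, 0.49 for T and NK cell, 0.38 for B cell and 0.67 for neutrophil genes. The libraries share treatments, tissue composition and depth, so these are descriptions only. In these libraries Ltf and Plac8 thus varied apart from the other genes listed for their cell type.

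**Figure D3:**
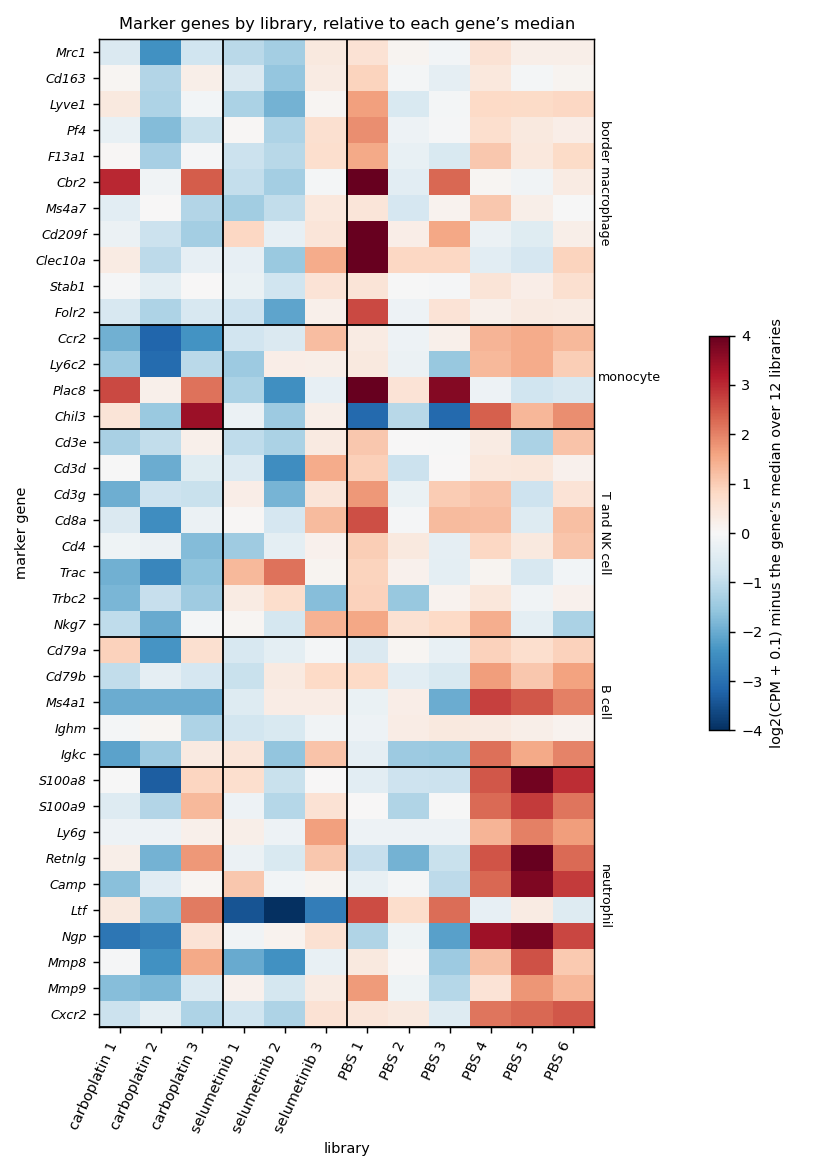
Level of each of the 38 genes in each library, coloured on a log scale relative to the gene's own median over the 12 libraries. Genes are grouped by cell type, with carboplatin, selumetinib and PBS libraries from left to right. Neutrophil genes other than Ltf are high in PBS 4 to 6, and Cbr2, Plac8, Clec10a and Cd209f are highest in PBS 1.

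Of 11 further neutrophil and marrow granulocyte genes tested, 0 passed against PBS for either drug, and 2 rose with carboplatin against selumetinib (5.65% of all genes rose). Lcn2, lipocalin 2, which reactive astrocytes also make, had 44.6, 10.1 and 23.7 CPM after carboplatin, 0.425, 0.533 and 0.385 CPM after selumetinib, and 0.335 to 6.60 CPM in PBS. Its carboplatin libraries lay above all others, with a log2 fold change of 5.85 ± 1.04 against selumetinib (edgeR adjusted p = 0.0122) and 3.01 ± 0.70 against PBS (edgeR adjusted p = 0.0547). Lrg1, a leucine-rich glycoprotein of neutrophils and vessels, had a log2 fold change of 3.41 ± 0.91 against selumetinib (edgeR adjusted p = 0.0349). Mpo and Elane, enzymes of immature granulocytes, had at most 0.0302 and 0 CPM after carboplatin.

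**Figure D4:**
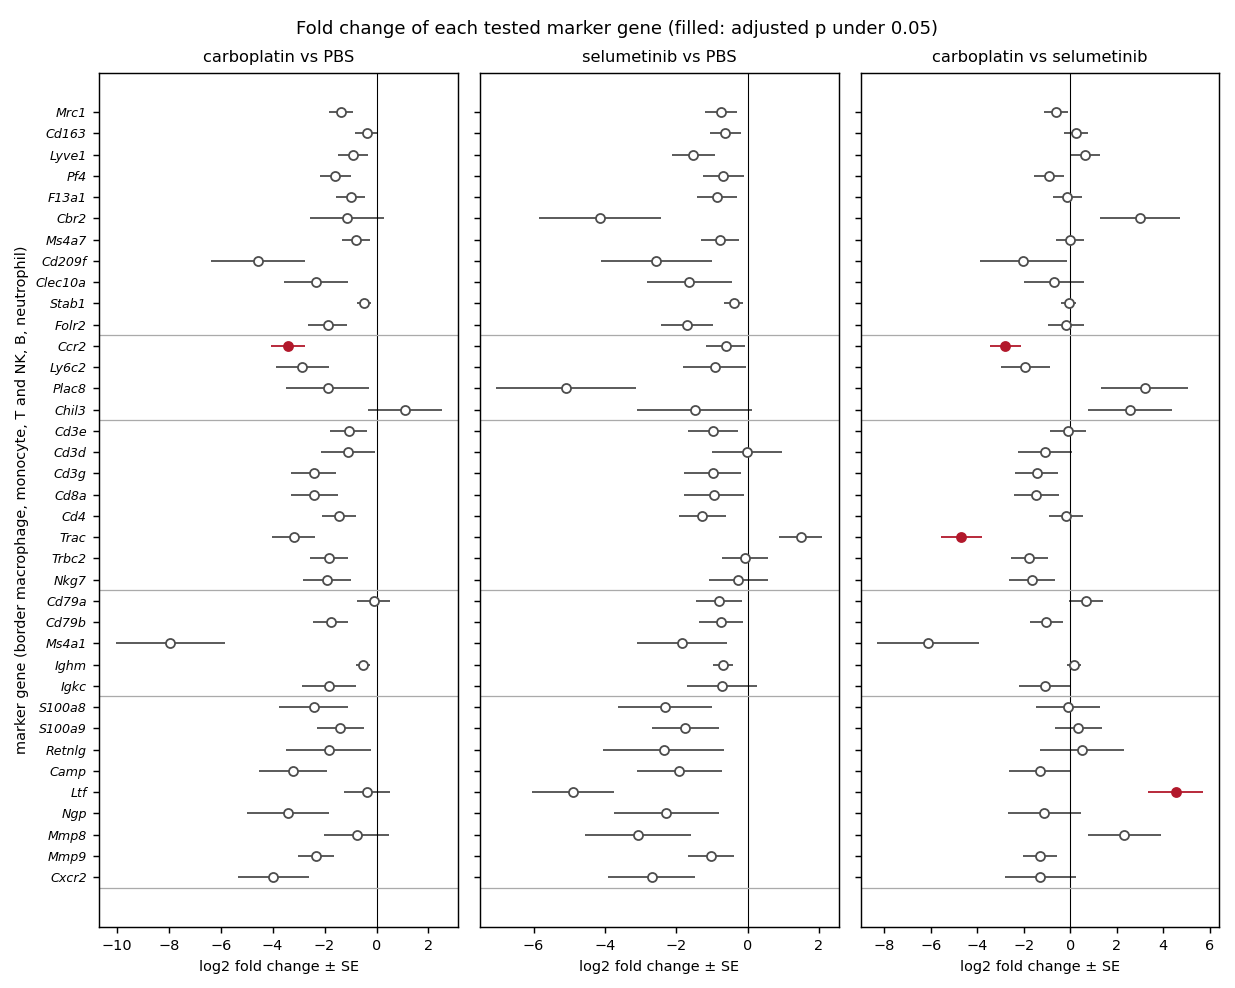
Log2 fold change of each tested gene with its SE for carboplatin against PBS, selumetinib against PBS and carboplatin against selumetinib, grouped by cell type, with filled points for genes past an adjusted p of 0.05. Against PBS nearly all points lie below 0 for both drugs, and the filled points are Ccr2 (−3.40) and, against selumetinib, Ccr2 (−2.78), Trac (−4.68) and Ltf (4.54). The fitted value of Ms4a1 depends on a prior count because its carboplatin libraries are at 0.

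Genes of red blood cells differed along the same groups. The 7 red blood cell genes summed to 12.6, 22.6 and 87.0 CPM after carboplatin, 631 to 1502 CPM after selumetinib and 241 to 7892 CPM in PBS, with carboplatin below all others. Of these 7 genes 5 fell with carboplatin against all 6 PBS libraries (0.518% of all genes fell). The fit with PBS 1 to 3 as controls called 7 of all genes. The 3 libraries PBS 4 to 6 held 2178 to 7892 CPM, against 241 to 1273 CPM in PBS 1 to 3, the same division as for neutrophil and B cell genes. The 6 mast cell genes summed to 0.571 to 1.00 CPM after carboplatin, 2.49 to 9.96 CPM after selumetinib and 0.712 to 61.6 CPM in PBS, and 0 passed. The part of blood cells in the immune marker values was not tested.

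**Figure D5:**
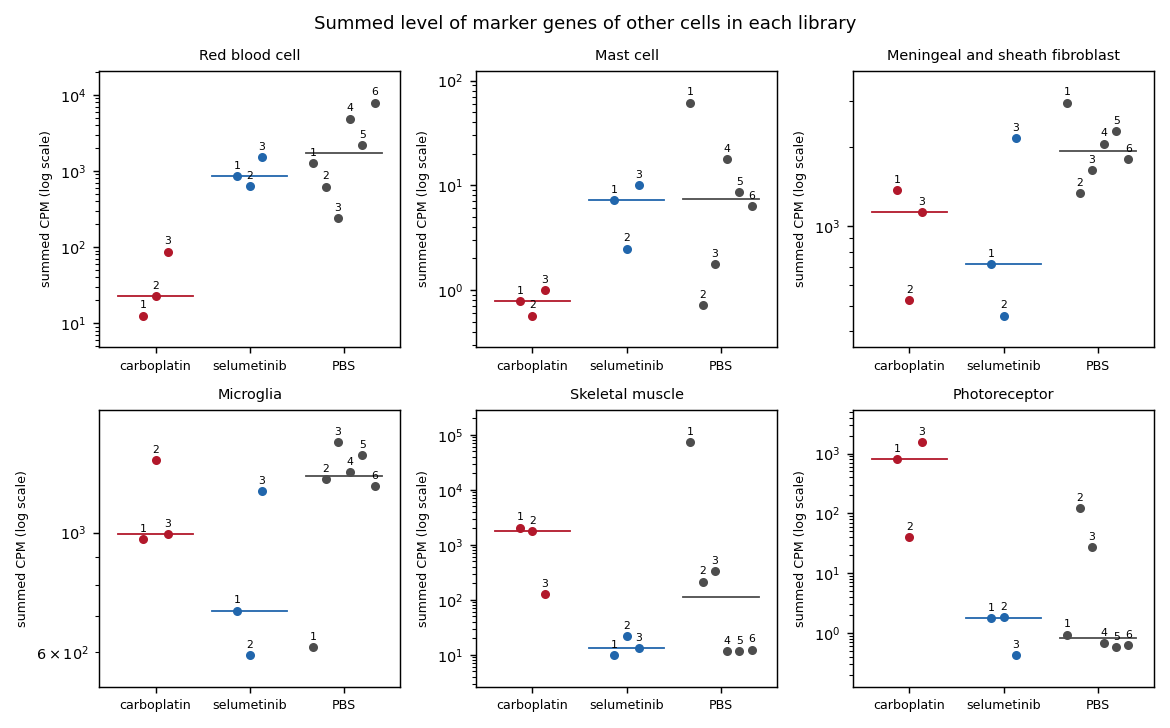
Summed CPM of marker genes of 6 other cell types in each library, on log axes, with a point per library, its replicate number and a line at the group median. Red blood cell genes lie between 12.6 and 87.0 CPM in carboplatin libraries, below all selumetinib and PBS libraries, and the muscle genes of PBS 1 reach 74582 CPM.

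Genes of a broad leukocyte list and genes of microglia were also measured. The broad list holds 8 genes, among them myeloid genes such as Spi1 and Fcer1g that not every leukocyte makes. Of these 8 genes 0 passed against PBS by edgeR. The median of their log2 fold changes was −0.01 under carboplatin and −0.66 under selumetinib. Ptprc, which encodes the leukocyte antigen CD45, had 10.04, 14.1 and 10.6 CPM after carboplatin, against 14.3 to 36.1 CPM in PBS (log2 fold change −1.09 ± 0.38, edgeR adjusted p = 0.187). Of 13 microglia genes 1 fell under carboplatin (0.518% of all genes fell), with a median of −0.31 over the list. This was Fcrls, an Fc receptor-like gene of resident macrophages. Fcrls had 3.60, 7.58 and 2.40 CPM after carboplatin, against 7.46 to 22.3 CPM in PBS, with PBS 5 the lowest PBS library (log2 fold change −1.91 ± 0.41, edgeR adjusted p = 0.0388).

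The count table also held genes of signals that recruit or sustain leukocytes. Of 16 chemokine and growth factor genes tested 0 passed against PBS for either drug, and 1 fell with carboplatin against selumetinib (8.35% of all genes fell). This was Flt3l, a growth factor of dendritic cells and lymphocytes, with 1.93, 1.63 and 2.20 CPM after carboplatin, 3.15, 5.65 and 7.01 CPM after selumetinib, and 2.76 to 4.47 CPM in PBS (log2 fold change −1.45 ± 0.32, edgeR adjusted p = 0.0205). Of 6 endothelial adhesion genes 1 rose with carboplatin against selumetinib (5.65% of all genes rose). It was Icam1, a ligand for leukocyte integrins (log2 fold change 1.11 ± 0.32, edgeR adjusted p = 0.0429). Icam1 had 31.3, 20.9 and 21.4 CPM after carboplatin and 8.10, 7.46 and 18.6 CPM after selumetinib, against 17.1 to 22.3 CPM in PBS.

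Outside the 38 genes, those ordered most like each summed level over the 12 libraries were picked from all genes past the count filter. They were Igf2r for border macrophages (rho 0.97) and Bcl3 for monocytes (0.97). For T and NK cells they were Obsl1, Gm12185 and Cd74 (0.94, 0.94 and 0.93). Myh9 and Rftn1 were picked for B cells (0.95 each) and Anxa2 and Sgms2 for neutrophils (0.92 each). In PBS 1, Plac8 made 175 of the 184 CPM of the monocyte sum, and Ltf 65.6 of the 79.6 CPM of the neutrophil sum. Both genes varied apart from their lists, and how far the order of these sums rests on them was not tested. Of the 38 genes, 7 overlap another annotated gene, 5 of them one on the opposite strand: F13a1, Stab1, Folr2, Cd3e and Ms4a1. Overlap was taken over whole gene spans, introns included, and not over exons. The strand setting of the counting was not given in the sources used here. Whether reads of antisense partners entered these counts is therefore not known. The constant region Trbc2, and Ly6c2 and Ly6g, belong to families with close copies, so their counts are uncertain where reads fit several copies.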

How the data were processed

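Poly(A) RNA of optic nerve was sequenced in 12 libraries, which were grouped by treatment as their titles give it. Raw read counts by Ensembl gene ID were deposited by the authors in 1 table. Per the submitters' processing notes, the reads went through FastQC, Trimmomatic, STAR and HTSeq, DESeq2 is also listed, and the build was mm10. Tool versions, annotation release and strand setting are not given in the sources used here.

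Of 35275 genes, 25593 had a count and 18344 passed filterByExpr (at its default minimum count of 10 and minimum total of 15). A single edgeR 4.0.16 model with TMM factors covered the 3 treatments and 12 libraries (R 4.3.3). Its robust quasi-likelihood test was used with Benjamini-Hochberg adjustment over all genes tested, and called at 0.05. The SE of a log2 fold change is its size divided by the square root of the F statistic. CPM use the TMM-scaled library sizes. Alternatives were DESeq2 1.42.0, RLE factors, no filter, PBS 1 to 3 or PBS 4 to 6 as controls, a block for the replicate number, and leaving out 1 library at a time. The block takes PBS 4 to 6 out of the comparisons with PBS, since no drug library has their replicate numbers. A fit without PBS 1, selumetinib 1 and selumetinib 2 was chosen after seeing the data.

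The 38 genes and all marker lists were chosen with earlier results of these data known. All 38 could be named, and from the other lists the genes past the test and the 3 with the smallest p. Some results on further B cell genes are not reported here. Gene positions came from GENCODE M21 (GRCm38), which held 34490 of the gene IDs. The tests were checked on simulated data with known answers. A level of 0 was given a floor of 3 counts, which covers counting error only.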

Additional observations from a re-analysis of the deposited data

Results flagged for a closer look

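Within the 6 PBS libraries, the gap between the highest or lowest library and its nearest neighbour was set against the range of the group. Of 43 sets of PBS values looked at, 11 held a library that stood apart by Dixon's criterion. Its rate of about 1 in 20 groups by chance holds for independent values with a normal spread. These sets are CPM without a log scale, and the sums repeat single genes, so 11 of 43 cannot be set against that rate. PBS 1 was the library in 9 of the 11. It had 11 CPM of Pf4, 441 CPM of Cbr2, 7.36 CPM of Cd209f, 14.2 CPM of Clec10a, 25.6 CPM of Folr2, 175 CPM of Plac8 and 4.66 CPM of Cd8a. Its summed border macrophage genes reached 672 CPM, and 232 CPM without Cbr2. Its summed monocyte genes reached 184 CPM, and 8.85 CPM without Plac8. PBS 5 was the highest library for Retnlg, at 6.80 CPM, and for Mmp8, at 3.05 CPM. PBS 1 was also the library with 74582 CPM over 8 skeletal muscle genes and 61.6 CPM over 6 mast cell genes, and the part of this in its immune marker values was not tested.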

How the results depend on the processing

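Immune marker genes called with carboplatin against PBS (1 in the main analysis) were 10 with DESeq2, 0 with PBS 1 to 3 as controls, 9 with PBS 4 to 6, 0 with the replicate block and 5 without PBS 1, selumetinib 1 and selumetinib 2, and between 0 and 3 with 1 library left out. All genes called (383) were 1574, 7, 2202, 5 and 3073 in the same settings, and 73 to 1941 with 1 library left out. With selumetinib against PBS (0 members, 0 genes), DESeq2 called 4 members and 2401 genes, PBS 1 to 3 as controls gave 3 genes, the replicate block 2, and leaving out 1 library 0 to 5 members and 0 to 4089 genes, the highest without selumetinib 3. With carboplatin against selumetinib (3 members, 2568 genes), DESeq2 called 4714 genes, the replicate block 0 members and 50 genes, and the fit without PBS 1, selumetinib 1 and selumetinib 2 gave 1 member and 516 genes. Leaving out 1 library gave 0 to 4 members and 134 to 5974 genes.

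Of the single-gene log2 fold changes given above, these turned sign. With carboplatin against PBS, Ltf was 1.11 with PBS 4 to 6 as controls and Plac8 2.58, while with PBS 1 to 3 Cd79a was 0.53 and Ngp 0.19. Without PBS 1, selumetinib 1 and selumetinib 2, Ltf was 0.089 and Plac8 0.25. Cd79a was 0.35 with the replicate block. With 1 library left out, Ltf ran from −1.62 to 0.15, Plac8 from −2.37 to 0.27, Chil3 from −1.27 to 1.69 and Cd79a from −0.61 to 0.41. With selumetinib against PBS, Ngp was 1.35 with PBS 1 to 3 as controls and 1.15 with the replicate block. Ccr2 was 0.17 with PBS 1 to 3 and 0.27 without PBS 1, selumetinib 1 and selumetinib 2. Trbc2 with carboplatin against selumetinib was 0.51 without those 3. With the replicate block, 31 of 37 immune marker genes lay below 0 for carboplatin against PBS and 26 for selumetinib. No drug library has the replicate numbers of PBS 4 to 6, so the block in effect compared the drugs with PBS 1 to 3. It is therefore not a check separate from that choice of controls. The cause of the sign changes was not tested. Whether the replicate numbers pair the samples was not settled. Same-number correlations of deviations ran from −0.13 to 0.43, and selumetinib libraries were not set against PBS 4 to 6 in them.

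Genes with a few counts per library, such as Ly6g, Trac and Ms4a1, are limited by depth.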
